A study of Saccharomyces cerevisiae with 4 samples.

Results

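Ribosome biogenesis factors are the proteins that build ribosomes without being part of them, and 55 of their genes were followed here among the 6301 open reading frames (ORFs) on spotted arrays of the budding yeast Saccharomyces cerevisiae. They were listed by name, from the NOP, UTP, RRP, DBP, MAK, IMP, NOG and RPF series and related genes, with earlier results of these data known, and genes in rows where the replicates disagree were kept off the list. In all 55 cases the systematic name matched a RefSeq gene with the symbol used below. The study contrasted strain S288c after 12 h in nitrogen-poor minimal medium (MM), which held 0.025% ammonium sulfate and neither amino acids nor adenine, with the same strain in nitrogen-rich synthetic complete medium (SC), grown at 30°C to an OD600 of 0.4. Each array was hybridized with cDNA of both cultures in different dyes, and reverse transcription was primed with oligo-dT. By the array titles, replicates 1 and 2 were each hybridized once with MM in Cy5 and SC in Cy3 (MM-Cy5 arrays) and once with the dyes swapped (SC-Cy5 arrays). This gave 4 arrays. The channel labels disagree with the titles on which medium had which dye, so the names of the orientations may be exchanged. Values of a pair of arrays are given below for replicate 1 before replicate 2.

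A ribosome starts as one long precursor RNA that RNA polymerase I makes in the nucleolus. On it the small subunit (SSU) processome forms from the UTP-A, UTP-B and U3 small nucleolar ribonucleoprotein (snoRNP) complexes, which fold and cleave the RNA of the small subunit. A separate set of scaffold proteins, RNA helicases and GTPases matures the large subunit and hands it to the export machinery. In yeast these genes form a regulon that is known to follow growth through the TOR and protein kinase A pathways, with the repressors Dot6 and Tod6 and the factor Stb3 acting on their promoters.

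Every value is a log2 ratio of MM over SC, so that a value of -1 is a 2-fold lower level in MM. Equal masses of mRNA (2 µg) were labelled, so a ratio compares shares of the mRNA pool and not amounts per cell. The arrays of both orientations of a replicate number were averaged to 1 replicate (n = 2), and genes with values on all 4 arrays were tested with limma against 0. Calls were made where the Benjamini-Hochberg adjusted p, taken over all 3765 genes tested, did not exceed 0.05. The replicates are described as biological, each with a reverse transcription of its own. Whether each array had its own pair of cultures is not stated, so the 2 replicate numbers are the units of these p-values. limma moderates the spread of each gene towards that of all genes tested, with 2.10 prior degrees of freedom against 1 of the gene itself. The p-value of a gene with a very small SD thus rests mostly on the spread of other genes, and without moderation 0 genes were called. In the rows from YKL054C to YMR185W and from YOR046C to YPL023C the replicates did not correlate (Pearson's r of 0.042 across 771 genes, against 0.959 across the other 2994). These are the rows kept off the list, and they are called the runs below. Their genes are part of the main fit and of the spread that it shares among genes. The direction of the ratios was not stated with them, and all signs would turn if it were opposite.

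Meager expression in MM was the common pattern of the assembly factors. Of the 55 genes, 38 had values on all 4 arrays, and 19 of these 38 were called lower in MM and 2 higher. The share called lower was 17.0% over all 3765 genes tested and 20.4% over the 2994 genes outside the runs, and the shares called higher were 16.5% and 19.9% (33.5% and 40.4% in either direction). The median log2 ratio of the 38 genes was -0.51 (-0.43 in replicate 1 and -0.47 in replicate 2), against -0.019 over all genes tested. Below 0 were 32 of the 38 genes, 29 of them on every array. Of all 3765 genes tested 51.5% were below 0, and 1149 were negative on every array. The 19 called genes fell 1.43-fold to 2.89-fold, each with a negative value on all 4 arrays (limma adjusted p between 0.00995 and 0.0411). With 1 array left out the count called lower lay between 6 and 15. It was 6 without the MM-Cy5 array of replicate 2, and the 6 were NSR1, NOG2, UTP9, MAK16, NOG1 and UTP4. In a fit without the runs, 22 of the 38 were called lower and 3 higher, against 33.3% and 30.8% of its 2994 genes (64.1% in either direction).

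**Figure D1:**
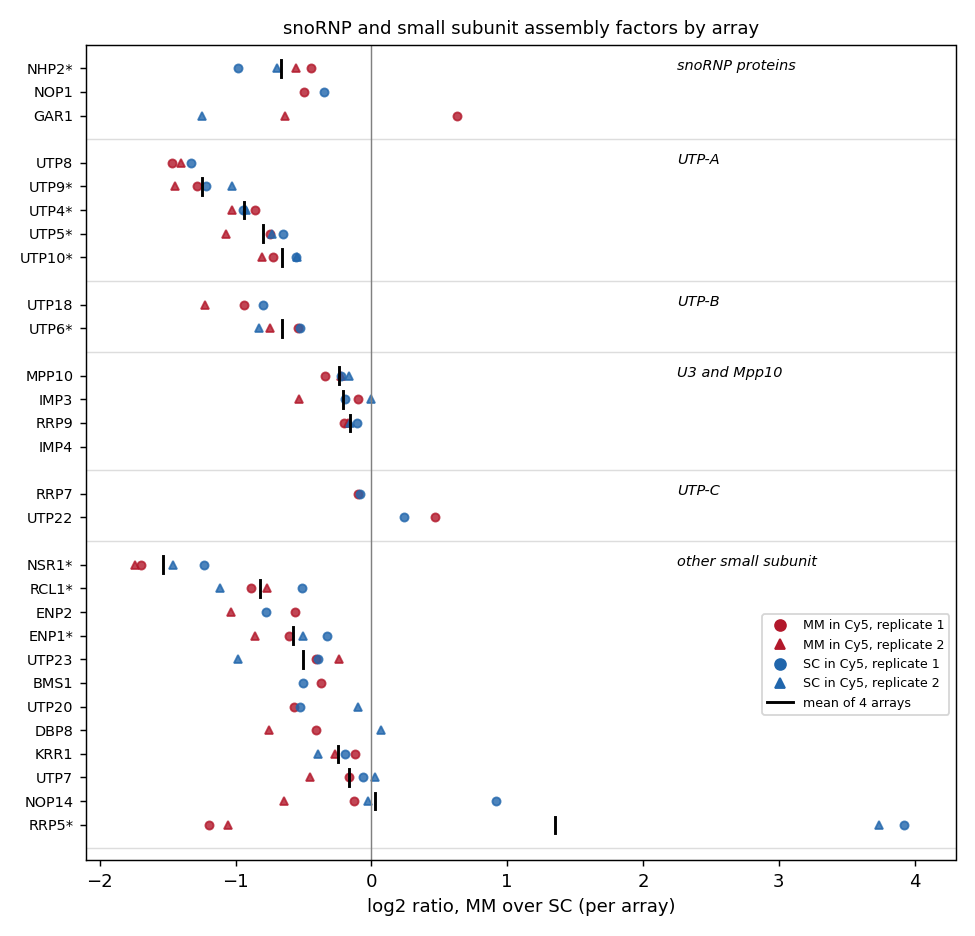
Log2 ratio of MM over SC (x axis) of each snoRNP protein and small subunit factor (rows, grouped by complex) on every array that measured it, with circles for replicate 1, triangles for replicate 2, red for MM in Cy5, blue for SC in Cy5 and a black bar for the mean of 4 arrays; a star marks a gene called by limma. The 16 values of the UTP-A genes measured on 4 arrays lie between -1.45 and -0.55, and RRP5 is split by dye.

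Subunits of UTP-A, the complex that binds first to the growing precursor RNA and is linked to its transcription, fell in every case tested. UTP9 (YHR196W) had -1.28 and -1.45 on the MM-Cy5 arrays, and -1.22 and -1.03 on the SC-Cy5 arrays. Its mean of -1.24 ± 0.0084 (SD, n = 2, limma adjusted p 0.0113) was a 2.37-fold lower level in MM. UTP4 (YDR324C) followed with -0.85 and -1.03 on the MM-Cy5 arrays, and -0.94 and -0.92 on the SC-Cy5 arrays, a mean of -0.94 ± 0.053 (adjusted p 0.0162). UTP9 and UTP4 were thus low on all 4 arrays, by more than the spread between replicates.

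UTP5 (YDR398W) averaged -0.80 ± 0.14 and UTP10 (YJL109C) -0.66 ± 0.027 (SD, n = 2, limma adjusted p 0.0237 and 0.0251). Both calls were lost without the MM-Cy5 array of replicate 2, and neither with any other array left out. UTP8 (YGR128C), which binds tRNA as well as the complex, was measured on 3 arrays, at -1.47 and -1.40 on the MM-Cy5 arrays and at -1.33 on the SC-Cy5 array of replicate 1. In a fit of genes with at least 1 array per replicate it was called too, at -1.40 (limma adjusted p 0.0147). NAN1, a further UTP-A subunit that was not among the 55 genes, was at -0.96 ± 0.11 and called lower (adjusted p 0.0174).

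MPP10, IMP3 and RRP9, the genes grouped here as U3 snoRNP proteins or partners that had values on 4 arrays, stood closer to 0. MPP10 (YJR002W), the scaffold that carries Imp3 and Imp4 to the U3 RNA, had -0.34 and -0.22 on the MM-Cy5 arrays, and -0.22 and -0.17 on the SC-Cy5 arrays. IMP3 (YHR148W) averaged -0.21 ± 0.085 and RRP9 (YPR137W), the protein specific to U3, -0.16 ± 0.011 (SD, n = 2). None of these 3 genes was called, with limma adjusted p of 0.147, 0.192 and 0.254, although each was below 0 on all 4 arrays. Their 12 array values ran from -0.54 to -0.0011. The 16 values of the UTP-A genes of the list measured on 4 arrays ran from -1.45 to -0.55, so the ranges nearly touched. NAN1, the UTP-A subunit outside the list, had -0.50 on the SC-Cy5 array of replicate 2, which lies inside the range of the U3 genes. The difference between the complexes was not tested. The 95% intervals of their means reached down to -0.53 for MPP10, -0.51 for IMP3 and -0.44 for RRP9. IMP4 (YNL075W) had no value on any array.

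Among the other complexes of the processome, UTP-B followed UTP-A. UTP6 (YDR449C), one of its scaffold subunits, had -0.54 and -0.74 on the MM-Cy5 arrays, and -0.52 and -0.83 on the SC-Cy5 arrays, a mean of -0.66 ± 0.18 (SD, n = 2, limma adjusted p 0.0360), which was not called without the MM-Cy5 array of replicate 2. UTP18 (YJL069C) was low on its 3 arrays, at -0.94 and -1.23 on the MM-Cy5 arrays and -0.80 on the SC-Cy5 array of replicate 1, and was called in the fit that accepts 1 array per replicate (adjusted p 0.0296). UTP-C was measured in replicate 1 only and could not be tested. Its subunit UTP22 (YGR090W) was at 0.47 on the MM-Cy5 array and 0.24 on the SC-Cy5 array, and RRP7 (YCL031C) was at -0.095 and -0.080.

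NSR1 (YGR159C), the nucleolin-like protein of the yeast nucleolus, had the lowest mean of the 38 genes. Its log2 ratio was -1.69 and -1.74 on the MM-Cy5 arrays, and -1.23 and -1.46 on the SC-Cy5 arrays. The mean of -1.53 ± 0.098 (SD, n = 2, limma adjusted p 0.00995) was a 2.89-fold lower level in MM, and NSR1 ranked 112 from the lowest of the 2994 genes outside the runs. Lower means than that of NSR1 were found in 3.71% of these genes.

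RCL1 (YOL010W) and BMS1 (YPL217C) encode an early pair, in which the GTPase Bms1 brings Rcl1 into the processome. RCL1 had -0.88 and -0.77 on the MM-Cy5 arrays, and -0.51 and -1.11 on the SC-Cy5 arrays, and was called lower at -0.82 ± 0.17 (SD, n = 2, limma adjusted p 0.0253), but not without either MM-Cy5 array. BMS1 was measured in replicate 1 only, at -0.37 and -0.51. ENP1 (YBR247C), which stays with the particle into the cytoplasm, was lower at -0.57 ± 0.15 (adjusted p 0.0411), a call that was lost without the MM-Cy5 array of replicate 1 or 2 or the SC-Cy5 array of replicate 2.

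The remaining small subunit factors spread around and below 0. UTP23 (YOR004W), a protein with a PIN domain, was at -0.50 ± 0.15 and just missed the threshold (limma adjusted p 0.0503). KRR1 (YCL059C), an RNA-binding protein with a KH domain, averaged -0.24 ± 0.12 and UTP7 (YER082C) -0.16 ± 0.070 (SD, n = 2, adjusted p 0.165 and 0.263). NOP14 (YDL148C) differed most between single arrays among these, at -0.13 and -0.65 on the MM-Cy5 arrays and at 0.92 and -0.025 on the SC-Cy5 arrays. Its mean of 0.029 ± 0.52 has no settled sign, and the 95% interval ran from -0.68 to 0.73. On 3 arrays, UTP20 (YBL004W) was between -0.57 and -0.10, the helicase gene DBP8 (YHR169W) between -0.76 and 0.067, and ENP2 (YGR145W) between -1.03 and -0.56. In the fit that accepts 1 array per replicate ENP2 was called lower, and UTP20 and DBP8 were not (limma adjusted p 0.0399, 0.223 and 0.0822).

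RRP5 (YMR229C), a large RNA-binding protein needed for both subunits, was called higher, but its sign depended on the dye. The ratio was -1.19 and -1.06 on the MM-Cy5 arrays, whereas it was 3.92 and 3.74 on the SC-Cy5 arrays. The mean of 1.35 ± 0.018 (SD, n = 2, limma adjusted p 0.0104) averages these opposite values, so RRP5 gives no direction between the media. A dye term fitted to the 4 arrays was called for 1 of the 38 genes, RRP5 (limma adjusted p 0.0116), and for 0.0266% of all genes tested. With unadjusted p-values up to 0.05 the term passed for 2 of the 38 genes and 8.21% of all, and with a replicate block it was called for 1 of the 38 and 0.691% of all. The call as higher was lost whichever array was left out, with means between 0.073 and 2.63.

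**Figure D2:**
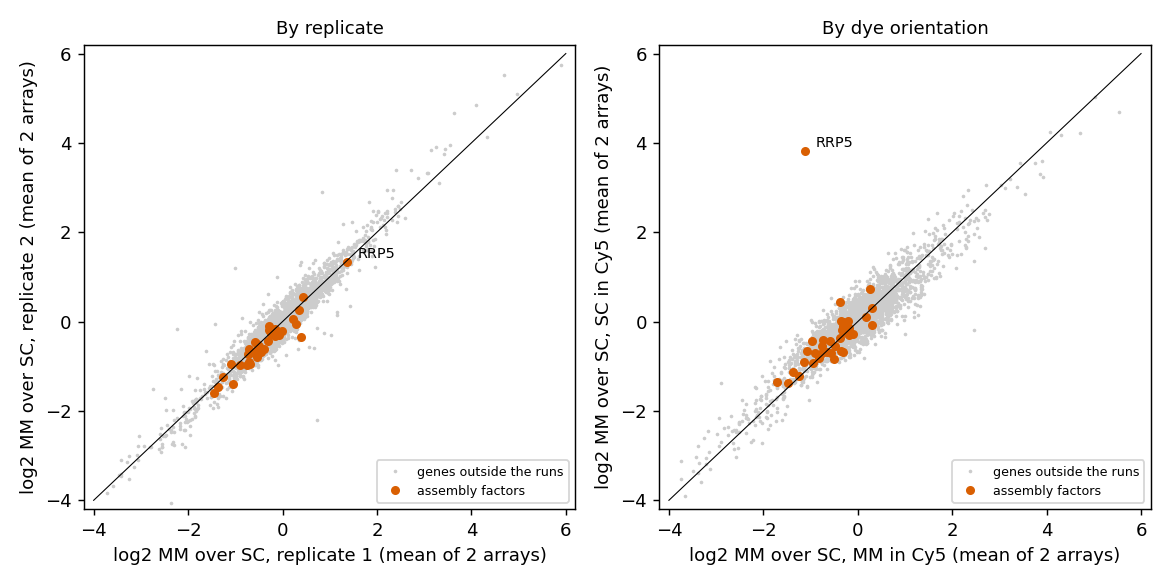
Each point is a gene outside the runs with values on 4 arrays (grey) or an assembly factor (orange); the left panel sets the log2 ratio of MM over SC in replicate 1 against replicate 2 and the right panel that with MM in Cy5 against that with SC in Cy5, each a mean of 2 arrays, with the line of equality. Most assembly factors lie near the line; RRP5 is far from it in the right panel, at -1.13 and 3.83, and NOP14 is off it in both, with opposite signs of the paired values.

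The other assembly factors differed less between the orientations, though not all were close. Across the 38 genes, Pearson's r between the replicates was 0.952, and 0.933 without RRP5 (Spearman's rho 0.920 and 0.913). Between the dye orientations r was 0.310 with RRP5 and 0.856 across the other 37 genes (rho 0.730 and 0.833), against 0.921 over all genes outside the runs. Within replicates, and without RRP5, it was 0.802 in replicate 1 and 0.669 in replicate 2. These correlations run across genes that share arrays and are descriptions. The median size of the difference between orientations was 0.20 on the log2 scale, against 0.22 over all genes tested, 26 of the 38 genes were lower on the MM-Cy5 arrays, and in 7 of the 38 the difference was larger than the mean ratio. After RRP5, NOP14 differed most with -0.83 (MM-Cy5 minus SC-Cy5 arrays), and NOP2 (YNL061W) had the largest difference in the other direction with 0.38.

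The core proteins of modification snoRNPs, which guide chemical changes of the ribosomal RNA, were measured incompletely. NHP2 (YDL208W), of the H/ACA class that directs pseudouridylation, had -0.45 and -0.55 on the MM-Cy5 arrays, and -0.98 and -0.70 on the SC-Cy5 arrays, and was called lower at -0.67 ± 0.062 (SD, n = 2, limma adjusted p 0.0254). The call was lost without the MM-Cy5 array of replicate 2 or the SC-Cy5 array of replicate 1. GAR1 (YHR089C), of the same particle, was at 0.63 and -0.64 on the MM-Cy5 arrays and at -1.25 on the SC-Cy5 array of replicate 2. Its replicates thus had opposite signs, and it was not called in the fit that accepts 1 array per replicate (adjusted p 0.817). NOP1 (YDL014W), the fibrillarin methyltransferase of the C/D class, was at -0.49 and -0.35 in replicate 1 and was blank in replicate 2.

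**Figure D3:**
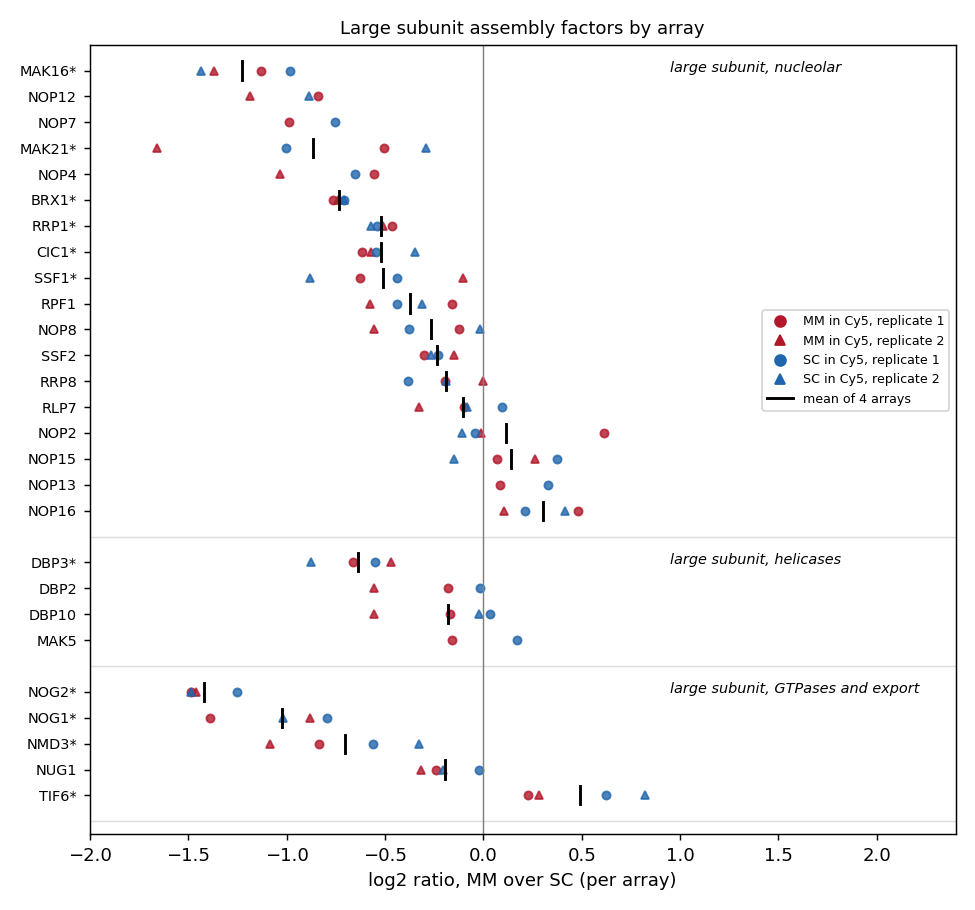
Log2 ratio of MM over SC (x axis) of each large subunit factor (rows, grouped by role) on every array that measured it, with circles for replicate 1, triangles for replicate 2, red for MM in Cy5, blue for SC in Cy5 and a black bar for the mean of 4 arrays; a star marks a gene called by limma. NOG2, MAK16 and NOG1 have means between -1.42 and -1.02, while TIF6 lies above 0 on all 4 arrays.

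For the large subunit, 21 of 27 factors were measured on all 4 arrays, and 10 were called lower and 1 higher, where 20.4% and 19.9% of all genes outside the runs were. The lowest mean was that of a GTPase. NOG2 (YNR053C), which holds the particle in the nucleus until it is ready for export, had -1.49 and -1.46 on the MM-Cy5 arrays, and -1.25 and -1.49 on the SC-Cy5 arrays. This gave -1.42 ± 0.074 (SD, n = 2, limma adjusted p 0.0104), a 2.68-fold lower level in MM. NOG1 (YPL093W), which travels with the particle to the cytoplasm, had -1.39 and -0.88 on the MM-Cy5 arrays, and -0.80 and -1.02 on the SC-Cy5 arrays, a mean of -1.02 ± 0.10 (adjusted p 0.0158). Their relative NUG1 (YER006W) was not called, at -0.20 ± 0.091 (adjusted p 0.214), and its 95% interval ended at -0.50, above the mean of either.

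NMD3 and TIF6, grouped here with these GTPases, had means of opposite sign. NMD3 (YHR170W), the adapter that leads the large subunit through the nuclear pore, had -0.83 and -1.09 on the MM-Cy5 arrays, and -0.56 and -0.33 on the SC-Cy5 arrays, and was called lower at -0.70 ± 0.0056 (SD, n = 2, limma adjusted p 0.0227). That SD is the spread of the replicate means, which lay far closer together than the arrays did. The orientations of NMD3 differed by -0.52 (MM-Cy5 minus SC-Cy5 arrays). The call was lost without the MM-Cy5 array of replicate 2. TIF6 (YPR016C), which keeps the large subunit from joining the small one too early, was the only factor of the list with a called rise and a single sign. It was at 0.23 and 0.28 on the MM-Cy5 arrays and at 0.62 and 0.82 on the SC-Cy5 arrays, a mean of 0.49 ± 0.090 (adjusted p 0.0443). The call of TIF6 held only without the MM-Cy5 array of replicate 1, where the adjusted p was 0.0420, and was lost when any other array was left out (up to 0.140).

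MAK16 (YAL025C), RPF1 (YHR088W) and RRP1 (YDR087C) form a complex with Nsa1 on early particles of the large subunit. MAK16 had -1.13 and -1.37 on the MM-Cy5 arrays, and -0.98 and -1.43 on the SC-Cy5 arrays, which made -1.23 ± 0.24 (SD, n = 2, limma adjusted p 0.0179). RRP1 was at -0.52 ± 0.026 and NSA1, not one of the 55 genes, at -0.51 ± 0.061 (adjusted p 0.0358 and 0.0386), and both were called lower, RRP1 only in the full set of arrays and without the MM-Cy5 array of replicate 1. RPF1 was below 0 on every array at -0.37 ± 0.10 but was not called (adjusted p 0.0746). The partners thus had the same sign with unequal sizes, and MAK16 lay beyond the others by more than its SD.

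Further scaffold proteins of the nucleolar large subunit, BRX1, MAK21, CIC1 and SSF1, were called lower. BRX1 (YOL077C), which gave the Brix domain its name, varied least among them, between -0.77 and -0.71 on the 4 arrays, and averaged -0.73 ± 0.010 (SD, n = 2, limma adjusted p 0.0216), a call that was lost without the MM-Cy5 array of replicate 2. MAK21 (YDR060W), of the Noc complexes that move particles out of the nucleolus, varied most among them, between -1.66 and -0.29. Its replicate means of -0.75 and -0.98 were closer to each other than its arrays were, and its adjusted p of 0.0226 rests on those means. The call of MAK21 was lost whenever an array other than the MM-Cy5 array of replicate 1 was left out. CIC1 (YHR052W) was at -0.52 ± 0.087 and SSF1 (YHR066W) at -0.51 ± 0.029 (adjusted p 0.0398 and 0.0368), and both calls were lost whichever array was left out.

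SSF1 has a close paralog, SSF2 (YDR312W), which was at -0.24 ± 0.042 (SD, n = 2) and was not called (limma adjusted p 0.144). The arrays carried whole ORFs amplified by PCR, so a spot of one paralog may take up cDNA of the other, and the values of the pair are uncertain for that reason. Their 95% intervals, -0.80 to -0.23 for SSF1 and -0.52 to 0.049 for SSF2, overlap.

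Nucleolar RNA-binding proteins numbered NOP split by array coverage and by sign. NOP12 (YOL041C) was at -0.84 and -1.19 on the MM-Cy5 arrays and -0.88 on the SC-Cy5 array of replicate 2, and NOP4 (YPL043W) was at -0.55 and -1.03 on the MM-Cy5 arrays and -0.65 on the SC-Cy5 array of replicate 1. Both were called lower when 1 array per replicate was accepted (limma adjusted p 0.0254 and 0.0489). That fit called 1219 of 4606 genes in either direction. The calls of CIC1, ENP1 and TIF6 were lost in it (adjusted p 0.0522, 0.0527 and 0.0573). NOP7 (YGR103W), a scaffold of early large subunit particles, was at -0.99 and -0.75 in replicate 1 and blank in replicate 2. NOP12, NOP4 and NOP7 were low wherever they were measured.

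NOP16 (YER002W), NOP15 (YNL110C) and NOP2 had means above 0, but none of them was called. NOP16 was positive on every array, at 0.48 and 0.10 on the MM-Cy5 arrays and 0.21 and 0.42 on the SC-Cy5 arrays, a mean of 0.30 ± 0.062 (SD, n = 2, limma adjusted p 0.0960). NOP15 was at 0.068 and 0.265 on the MM-Cy5 arrays and 0.38 and -0.15 on the SC-Cy5 arrays, a mean of 0.14 ± 0.12 (limma adjusted p 0.349). NOP2, a methyltransferase of the large subunit RNA, was at 0.61 and -0.013 on the MM-Cy5 arrays and at -0.043 and -0.11 on the SC-Cy5 arrays, so that 1 array carried its mean of 0.11 ± 0.24. NOP13 (YNL175C) was at 0.083 and 0.33 in replicate 1 only.

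NOP8 (YOL144W), needed for the large subunit, RRP8 (YDR083W), a methyltransferase of its RNA, and RLP7 (YNL002C), a relative of a ribosomal protein, lay slightly below 0 with means of -0.27, -0.19 and -0.10, and were not called. Of the RNA helicases, DBP3 (YGL078C) was called lower, with -0.66 and -0.47 on the MM-Cy5 arrays, -0.55 and -0.88 on the SC-Cy5 arrays, and a mean of -0.64 ± 0.047 (SD, n = 2, limma adjusted p 0.0263). That call was lost without either array of replicate 2. DBP10 (YDL031W) was at -0.18 ± 0.16 (adjusted p 0.285), DBP2 (YNL112W) was between -0.56 and -0.018 on 3 arrays, and MAK5 (YBR142W) was at -0.16 and 0.17 in replicate 1. Of the helicases of this list that were measured on 4 arrays, DBP3 was thus called and DBP10 was not.

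Genes that were not called were not shown to be unchanged. The 17 genes without a call had means between -0.50 and 0.30, 13 of them below 0, and their 95% intervals reached from -0.84 to 0.73. The median half-width of an interval over the 38 genes was 0.30, and the smallest called fall was that of SSF1 with -0.51. Among the 38 genes, means of smaller size were not called in this fit, except that of TIF6 with 0.49. This limit depends on the fit, as the fit without the runs also called UTP23, RPF1 (-0.37), NOP16 (0.30) and NOP8 (-0.27).

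Blank spots were fewer among the assembly factors than over the table. Of the 55 genes, 38 (69.1%) were on 4 arrays, 9 on 3 and 7 on 2, against 59.8% of all ORFs and 63.0% of those outside the runs on 4 arrays. All 7 genes on 2 arrays lacked both arrays of replicate 2. Replicate 2 had more blank spots over all ORFs as well. Its MM-Cy5 and SC-Cy5 arrays were blank for 30.3% and 34.6% of ORFs, against 5.71% and 7.25% in replicate 1. A spot was blank where its signal was not well above background, so a gene enters the test only if both media gave signal on every array.

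**Figure D4:**
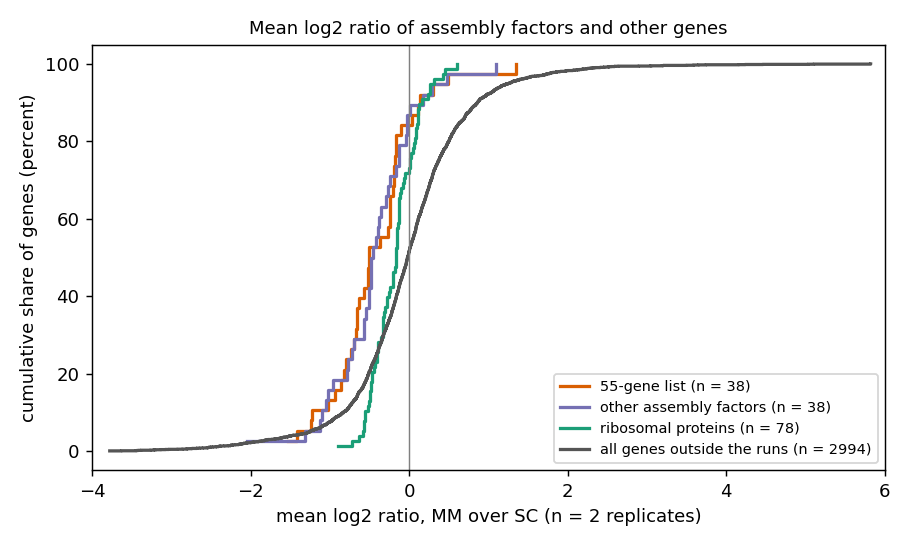
Cumulative share of genes (y axis, percent) up to a given mean log2 ratio of MM over SC (x axis, n = 2 replicates), for the assembly factors of the list, other assembly factors, cytosolic ribosomal proteins and all genes outside the runs that were measured on 4 arrays. Both curves of assembly factors lie to the left of that of all genes around 0, with medians of -0.51 and -0.46, and the ribosomal proteins lie between, with -0.17.

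A second list of 64 assembly factors, which shares no gene with the first and also avoids the runs, had a similar median. Of its 38 genes on 4 arrays, 13 (34.2%) were called lower and 1 higher, against 20.4% and 19.9% of all genes outside the runs. The median log2 ratio was -0.46 and 33 genes were below 0, as were 51.6% of all genes outside the runs. The difference from the first list was not tested. ESF1, an early processome protein, fell most, with -1.92 and -1.94 on the MM-Cy5 arrays, -1.91 and -2.41 on the SC-Cy5 arrays and a mean of -2.04 ± 0.19 (SD, n = 2, limma adjusted p 0.00928). NAF1, which assembles H/ACA particles, was the gene called higher, with 0.75 and 0.98 on the MM-Cy5 arrays, 1.36 and 1.31 on the SC-Cy5 arrays and a mean of 1.10 ± 0.063 (adjusted p 0.0136). The H/ACA proteins of both lists therefore gave a called fall (NHP2), a called rise (NAF1), a gene whose replicates disagree (GAR1) and a gene on 3 arrays with values between -0.60 and -0.39 (SHQ1), while NOP10 had no value.

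Products of assembly, the cytosolic ribosomal proteins, stood closer to 0. Outside the runs 78 of their genes were tested, and 14 (17.9%) were called lower and 2 higher, with a median log2 ratio of -0.17. The share called lower was near that of all genes there (20.4%), whereas fewer were called higher than the 19.9% of all genes there. Below 0 were 56 of the 78 genes (71.8%), against 51.6% of all genes outside the runs. None of them had a mean at least 2-fold lower, whereas 5 of the 38 assembly factors did (NSR1, NOG2, UTP9, MAK16 and NOG1), as did 226 of the 2994 genes outside the runs. The difference between the lists was not tested, and many ribosomal protein genes are near-identical pairs that share cDNA on such spots.

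Of 9 regulators of this regulon or of ribosomal protein genes, 6 were measured on 4 arrays and 2 of these were called, both higher, a share like the 33.5% called in either direction over all genes (40.4% outside the runs). CRF1, known as a corepressor of ribosomal protein genes under TOR, was at 0.94 and 1.18 on the MM-Cy5 arrays and 1.29 and 1.27 on the SC-Cy5 arrays, a called rise of 1.17 ± 0.076 (SD, n = 2, limma adjusted p 0.0131). TOR1, a kinase at the head of the pathway, rose as well, with 0.60 and 0.75 on the MM-Cy5 arrays, 0.77 and 0.77 on the SC-Cy5 arrays and a mean of 0.72 ± 0.053 (adjusted p 0.0227). The direct repressors DOT6 and TOD6 were at -0.17 ± 0.053 and 0.017 ± 0.32, and STB3 was at -0.25 ± 0.029, none of them called (adjusted p 0.235, 0.940 and 0.128). HMO1, which acts on both ribosomal RNA and ribosomal protein genes, was at -0.43 ± 0.070 and missed the threshold (adjusted p 0.0526). RAP1 (1.20 and 0.99), FHL1 (-0.18 and -0.17) and SCH9 (-0.36 and 0.012) had values in replicate 1 only.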

How the data were processed

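Transcript levels of S. cerevisiae S288c in MM and SC were measured on 4 two-colour arrays. Per the methods of the study, the authors scanned the arrays with a GenePix scanner, subtracted background and kept spots whose signal lay more than 3 standard deviations above it, on which each array was then normalized mean by mean. The deposited values are log2 ratios, 1 per ORF and array, with other spots blank; the authors' further analysis with the program BAGEL was not used here. The titles and the channel labels of an array disagree on which medium had which dye. Arrays of both orientations correlated positively, so the ratios were taken as turned to 1 direction already. That direction was taken as MM over SC, since the mean value had the sign that the study's text gives for 5 of 5 genes, 4 of them inside the runs.

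Dye-swapped arrays of a replicate number were averaged (n = 2), and lmFit and eBayes of limma 3.58.1 (R 4.3.3) tested the mean against 0, two-sided, with Benjamini-Hochberg adjustment over all genes on 4 arrays. The fit was also run on simulated data with independent noise, which checks the code and not the calls in these data. A dye term was fitted to the 4 arrays. SDs are between replicate means, and intervals are 95%. Over genes outside the runs, deviations of arrays with the same number correlated at 0.044 (0.706 over all genes). Symbols came from RefSeq R64. The genes and lists were chosen with earlier results of these data known. Values on every array are given for the 6 largest falls and rises, for called or largest dye differences, for 1 to 3 genes of each complex or role, and for the largest called changes among other factors and regulators. NAN1, NSA1, SHQ1, NOP10 and the neighbouring genes were named after their values were seen. Promoters were not analysed here. The number of arrays limits the precision.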

Additional observations from a re-analysis of the deposited data

Results flagged for a closer look

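RRP5 differed between the dye orientations by -4.95 on the log2 scale (MM-Cy5 minus SC-Cy5 arrays), although both kinds of array set MM against SC, with the same sign in 2 of 2 replicates (limma dye term -2.48, adjusted p 0.0116). With any 1 array left out the adjusted p of RRP5 lay between 0.239 and 0.312 and 0 genes were called, with 56 to 311 genes at an unadjusted p at or under 0.05. What moved with the dye was not tested, as a hybridization of one RNA in both dyes was not analysed here. Of the other 37 assembly factors on 4 arrays, TIF6 was the 1 called higher.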

How the results depend on the processing

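All settings were planned. The count of assembly factors called lower was 19, and lay between 6 and 15 with 1 array left out. The count called higher was 2, lay between 0 and 1 with 1 array left out, and was 1 with 4 arrays as independent and 1 with at least 1 array per replicate. With no moderation limma called 0 factors in either direction and 0 genes in all, with 15 factors and 877 genes at an unadjusted p at or under 0.05. Over all genes 1263 were called, 1920 in a fit without the runs, 1979 with a random replicate block, and between 570 and 1026 with 1 array left out. With the replicate block 23 factors were called lower and 2 higher, and RRP5 was not among them. With the runs left out 22 were called lower (33.3% of all genes in that fit) and 3 higher, the additions being NOP8, NOP16, RPF1 and UTP23. The median of the factors was -0.51 and lay between -0.50 and -0.42 with 1 array left out. The dye term was called for 1 factor, and for 0 with 1 array left out; with a replicate block it was called for 26 genes (0.691%), of which RRP5 was the 1 factor. NOP14 changed sign to -0.23 without the SC-Cy5 array of replicate 1 and -0.13 without the SC-Cy5 array of replicate 2, and its mean was at most 0.29 without any other array. NOP2 lay between -0.051 (without the MM-Cy5 array of replicate 1) and 0.28 with 1 array left out. Of the 21 calls, 6 held whichever array was left out and 3 (CIC1, SSF1 and RRP5) were lost whichever was left out. With an array left out, the dyes of that replicate are unbalanced. Centring the arrays changed no call, and centring with scaling ended that of CIC1 and added UTP23. The cause of these changes was not tested. The planned motif search in promoters was not run.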

Other observations

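Some assembly factors are neighbours in the genome. In the order of RefSeq genes, 7 of the 55 genes lie directly beside another gene of the 2 lists of assembly factors, in 5 pairs. SSF1 and RRP3 are divergent, and their mean log2 ratios were -0.51 and -0.54, although RRP3 was not called (limma adjusted p 0.0645). DBP8 lies beside NMD3, RPF1 beside GAR1, UTP9 beside RIX1 and NOG2 beside ESF2. UTP9 and NOG2 had lower values than their neighbours on each array that measured both, with RIX1 at -0.60 and -0.67 in replicate 1 and ESF2 between -0.71 and -0.50 on 3 arrays. How often neighbours share a value across the genome was not tested.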
